A study of Mus musculus with 12 samples.

Results

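The genes described here are 10 genes of the tenascin and perineuronal net matrix, read across poly(A) RNA-seq libraries of the cerebellar cortex of 12 mice on 3 diets. The members were listed by symbol and found among 54752 genes in the count table, and all 10 were present. They comprise the tenascins Tnc and Tnr, the lecticans Vcan, Bcan, Ncan and Acan, the link proteins Hapln1, Hapln2 and Hapln4, and neuroglycan C (Cspg5). The family was chosen with earlier results of these data known, among them the lower level of Tnc under dietary restriction. Its values in DR against AL mice are therefore given as a description, and a count of members past the threshold in that contrast is printed only beside its background.

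The paper describes its AL and DR mice as wild-type males, F1 hybrids of C57BL6J and FVB, and does not describe the KD mice. All mice were aged 12 weeks, with 4 mice on each diet. AL mice ate ad libitum. DR mice were on dietary restriction, received a reduced portion once a day just before the dark period, and went without that meal on the day of dissection. KD mice were on a ketogenic diet, whose composition is not given in the sources used here. For the AL and DR mice, pieces of cortex taken from the vermis through to the hemisphere were used, cut so that the deep nuclei stayed behind. AL and DR samples were selected for RNA quality from a larger number of mice. All AL and DR dissections fell in a window early in the dark period. The time of dissection, feeding on that day and selection of the KD mice are not given in the sources used here, so a difference of KD from the other diets cannot be told apart from a difference in these.

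Library totals ran from 31712084 to 40798644 counted reads (median 36674269). Marker genes fitted the labelled tissue, since the summed level of 7 Purkinje cell markers was between 3341 and 4057 TPM, a level per transcript length and depth, and that of 5 granule cell markers between 3328 and 3773 TPM in all 12 libraries. The 3 markers of cerebellar nuclei neurons summed to between 5.24 and 9.59 TPM. Most of this sum was Spp1, at means of 6.36 TPM on AL, 7.59 TPM on DR and 6.29 TPM on KD. Slc17a6 averaged at most 0.23 TPM and Lhx9 at most 0.25 TPM in any diet. KD replicate 1 stood apart in the sum of choroid plexus markers, at 31.2 TPM, whereas every other library lay at or below 16.6 TPM. Of these markers, Ttr averaged 2.29 TPM on AL, 2.30 TPM on DR and 10.1 TPM on KD. Clic6 averaged 7.79, 7.57 and 6.71 TPM in the same order. Kl averaged at most 0.41 TPM and Folr1 at most 0.08 TPM in any diet, and Sostdc1 was at 0 in at least 1 library.

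Lecticans are chondroitin sulfate proteoglycans that bind hyaluronan at their amino-terminal end, where link proteins hold the bond, and tenascins at their carboxy-terminal end. Tenascin-R cross-links several such complexes, and the resulting lattice wraps the cell body and proximal dendrites of certain neurons as a perineuronal net. A looser form of the same matrix surrounds synapses and nodes of Ranvier. In the cerebellum the densest nets lie around neurons of the cerebellar nuclei, which the dissection left out, while the cortex holds nets around Golgi neurons and a diffuse matrix made largely by glia.

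The sequences upstream of the tenascin genes are shown because Tnc and Tnr differed in level between DR mice and the other diets to different degrees. They are 250 bases ending just before the RefSeq start on GRCm38.p6, 5′ to 3′ on the strand of the gene, with motif matches in capitals. The Tnc window is chr4:64047016-64047265 on the minus strand, before the upstream start of 2 in RefSeq, and the Tnr window is chr1:159523519-159523768 on the plus strand.
Tnc: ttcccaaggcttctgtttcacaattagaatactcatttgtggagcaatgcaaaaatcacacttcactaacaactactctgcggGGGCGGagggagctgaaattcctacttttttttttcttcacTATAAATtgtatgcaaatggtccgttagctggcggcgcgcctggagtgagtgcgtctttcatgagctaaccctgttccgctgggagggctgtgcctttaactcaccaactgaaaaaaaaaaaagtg
Tnr: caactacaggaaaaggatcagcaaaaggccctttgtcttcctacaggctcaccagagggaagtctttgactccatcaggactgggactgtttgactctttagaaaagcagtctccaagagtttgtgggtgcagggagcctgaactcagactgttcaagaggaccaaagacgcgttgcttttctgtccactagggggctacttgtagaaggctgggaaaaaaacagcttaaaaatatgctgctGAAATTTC
Both strands were searched for a TATA box spelled TATAAAA, spelled TATATAA, spelled TATAAAT or spelled TATATAT, and for the GC box GGGCGG. They were also searched for GAANNTTC, a pair of inverted units that is shorter than a full heat shock element. Matches of different motifs did not overlap. The Tnc window held TATAAAT at -126 to -120 and GGGCGG at -167 to -162, counted back from the start. The window before the downstream Tnc start, not shown, held TATATAA at -29 to -23, TATAAAT at -205 to -199 and GGGCGG at -246 to -241. The Tnr window held GAAATTTC at -8 to -1. Of 32851 promoter windows of the same length, 11.5% held a TATA box, 32.7% a GC box and 6.69% GAANNTTC, so each of these letters is common and a match is a description of the sequence. RefSeq entries were found for 8 of the 10 members, not for Hapln4 and Cspg5. Besides the tenascins, Vcan, Bcan, Ncan and Acan had a GC box in the window, whereas Hapln1 and Hapln2 had no match.

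**Figure D1:**
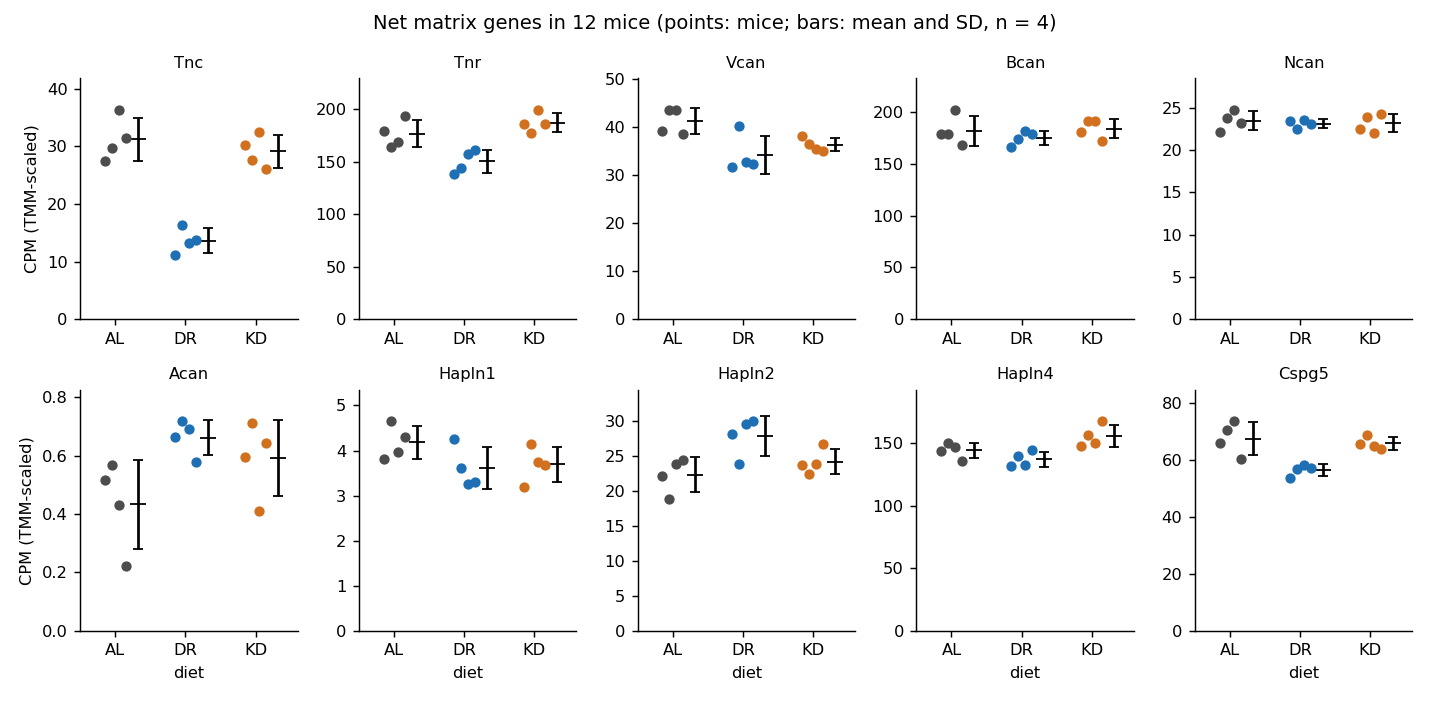
Level of each member in CPM (read counts scaled to library size with TMM factors, axis from 0) in 12 mice by diet, with 1 point per mouse and the mean ± SD (n = 4) beside each diet. The DR mice lie between 11.1 and 16.4 CPM for Tnc, below all AL and KD mice, while the diets overlap for Bcan and Ncan.

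Among the tenascins, all 4 DR mice had less Tnc RNA than any AL or KD mouse. Tnc (ENSMUSG00000028364.15, chromosome 4 of GRCm38.p6, 63959785 to 64047015, minus strand) encodes tenascin-C, a glycoprotein made mainly by glia that modulates cell adhesion. Tnc was at 27.5, 29.8, 36.3 and 31.4 CPM in AL replicates 1 to 4. The DR mice were at 11.1, 16.4, 13.2 and 13.7 CPM. The KD mice were at 30.2, 27.6, 32.5 and 26.1 CPM. The highest DR mouse thus lay below the lowest mouse of either other diet, and AL and KD overlapped. Means were 31.3 ± 3.74 CPM on AL, 13.6 ± 2.16 CPM on DR and 29.1 ± 2.84 CPM on KD (SD, n = 4 each). The log2 fold change of DR against AL was -1.20 (standard error, SE, 0.11), a level of 0.435 times that of AL. In bulk tissue, fewer cells of a type and less RNA per cell cannot be told apart. Exons of 8030451A03Rik, on the opposite strand, covered 2.27% of the Tnc exon bases, and the library kit did not keep strand.

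Tnr (ENSMUSG00000015829.13, chromosome 1, 159523769 to 159931729, plus strand) encodes tenascin-R, made by the oligodendrocyte lineage and some neurons, which binds the lecticans in nets. Its level was 179.8, 164.6, 168.8 and 193.3 CPM in the AL mice. It was 138.9, 143.7, 157.4 and 161.5 CPM in the DR mice and 185.8, 177.6, 199.6 and 185.6 CPM in the KD mice. All DR mice lay below all AL and KD mice, but the gap to the lowest AL mouse was narrow. The log2 fold change of DR against AL was -0.23 (SE 0.06), much less than that of Tnc. The ratio of Tnr to Tnc in TPM, which corrects for gene length, was between 2.81 and 3.95 on AL, between 5.30 and 7.53 on DR and between 3.71 and 4.30 on KD. The ratio in DR mice did not overlap that in either other diet. Exons of Gm38039, on the opposite strand, covered 3.44% of the Tnr exon bases.

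Neuroglycan C and the lectican Vcan were also lower on average on DR. Cspg5 (ENSMUSG00000032482.9, chromosome 9, 110243783 to 110262576) encodes neuroglycan C, a membrane-spanning chondroitin sulfate proteoglycan of neurons and glia. Cspg5 was at 65.9, 70.4, 73.5 and 60.3 CPM on AL, at 53.6, 56.7, 58.3 and 57.2 CPM on DR and at 65.5, 68.9, 64.9 and 64.0 CPM on KD. The DR mice lay below all other mice, with a log2 fold change against AL of -0.26 (SE 0.06). Vcan (ENSMUSG00000021614.16, chromosome 13, 89655312 to 89742509), which encodes versican, a lectican of oligodendrocyte precursors and other cells, was at 39.2, 43.5, 43.6 and 38.6 CPM on AL. It was at 31.6, 40.2, 32.7 and 32.3 CPM on DR and at 38.2, 36.4, 35.5 and 35.1 CPM on KD. DR replicate 2 lay within the AL range and the other 3 DR mice below it, and all KD mice lay just below the AL mice. The log2 fold change of Vcan on DR against AL was -0.27 (SE 0.07).

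Hapln2 differed with the opposite sign. Hapln2 (ENSMUSG00000004894.10, chromosome 3, 88021750 to 88027583) encodes the link protein of nodes of Ranvier, where it joins versican and brevican to hyaluronan. Its level was 22.1, 18.8, 23.8 and 24.5 CPM on AL, 28.1, 23.8, 29.6 and 29.9 CPM on DR and 23.7, 22.4, 23.9 and 26.7 CPM on KD. DR replicate 2 lay inside the range of the AL mice, and the other 3 DR mice lay above every AL and KD mouse. The log2 fold change of DR against AL was 0.32 (SE 0.09).

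The remaining members showed smaller or less certain differences. Bcan (ENSMUSG00000004892.13, chromosome 3, 87987531 to 88000230), which encodes brevican, a lectican of astrocytes and synapses, was between 168.6 and 202.4 CPM on AL, 166.0 and 181.7 CPM on DR and 172.4 and 192.0 CPM on KD. Ncan (ENSMUSG00000002341.8, chromosome 8, 70093085 to 70120873), which encodes neurocan, was at 23.4 ± 1.12 CPM on AL, 23.1 ± 0.507 CPM on DR and 23.2 ± 1.09 CPM on KD (SD, n = 4 each), which overlapped. Hapln4 (ENSMUSG00000007594.10, chromosome 8, 70083457 to 70090862), which encodes the brain link protein that partners brevican in the cerebellum, had means of 144.0 ± 6.07 CPM on AL, 137.1 ± 6.03 CPM on DR and 155.4 ± 8.63 CPM on KD (SD, n = 4 each). Hapln1 (ENSMUSG00000021613.9, chromosome 13, 89539796 to 89611652), the link protein also known from cartilage, was between 3.20 and 4.65 CPM. Acan (ENSMUSG00000030607.7, chromosome 7, 79053483 to 79115099), which encodes aggrecan, the classical lectican of dense nets, was between 0.222 and 0.718 CPM. Its counts were between 7 and 26 reads per library, so a moderate difference was not detectable at this depth, and the log2 fold change of DR against AL was 0.58 with a 95% interval of -0.03 to 1.19. Without AL replicate 4, which had 7 reads, it was 0.38.

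Over the 10 members, 2 (Tnc and Cspg5) fell under an adjusted p of 0.05 when DR was tested against AL with edgeR, where 3.06% of 19052 genes did, and nothing is read from this count because that contrast chose the family. Between DR and AL, 4 members did not overlap (Tnc, Tnr, Cspg5 and Acan), where 10.9% of all tested genes did not. The median member log2 fold change was -0.14, and that of all tested genes was 0.0036. The count of members under the threshold moved between 1 and 5 with the setting.

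**Figure D2:**
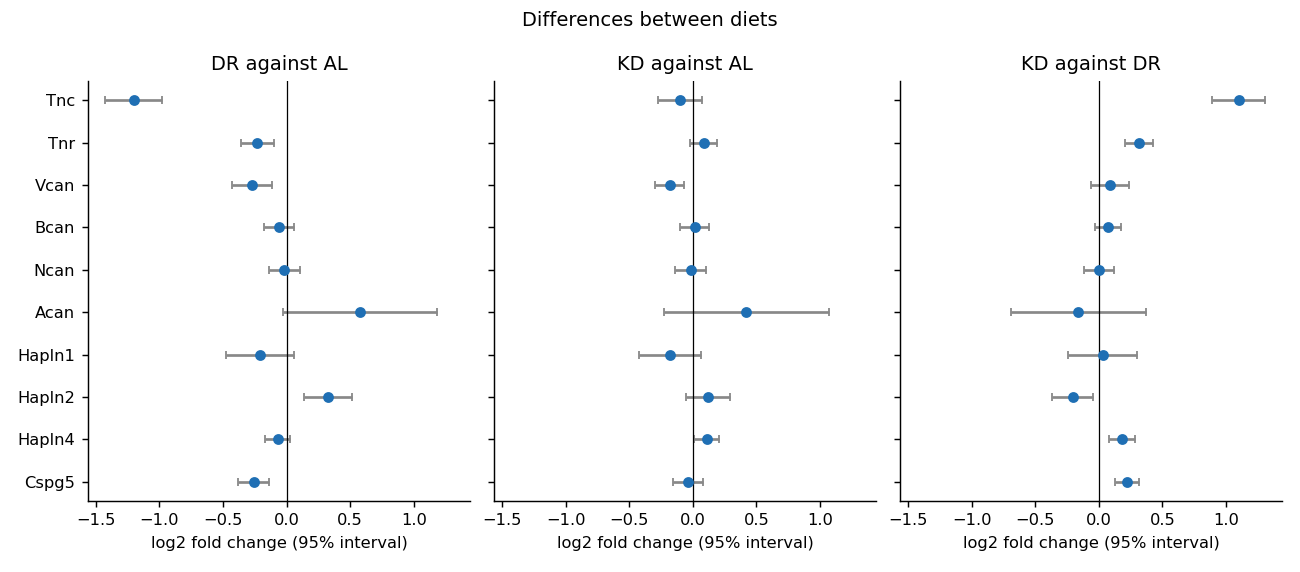
Log2 fold change of each member (points, with 95% intervals of the edgeR fit) in DR against AL, KD against AL and KD against DR. Tnc lies at -1.20, -0.10 and 1.10, and the intervals of Ncan and Bcan include 0 in each comparison.

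The ketogenic diet was compared with AL to see how the family varied on another diet. No member and none of the 78 pathway genes tested of 84 listed passed, and the members' log2 fold changes ran from -0.18 for Vcan and Hapln1 to 0.42 for Acan, which was 0.22 without AL replicate 4. The members called were 0 of 10, where 0.0% of the 19036 genes tested were called by edgeR's quasi-likelihood test, and 928 genes (4.87%) had an unadjusted p under the threshold, as did 2 members. DESeq2 called 10 genes and edgeR without the low-count filter 118, with no member among them. Tnc differed by -0.10 on the log2 scale (95% interval -0.28 to 0.08), an interval from 0.826 to 1.05 times the AL level. Tnr differed by 0.09 (95% interval -0.02 to 0.19), and Hapln4 by 0.11 (95% interval 0.01 to 0.21). Vcan was the 1 member whose KD and AL mice did not overlap, where 2.96% of genes did not, at -0.18 (SE 0.05, edgeR adjusted p = 0.981). The medians of the members and of all genes were both 0.0002.

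KD mice were next set against DR mice, to ask whether the 2 diets differed in the matrix genes. This comparison shares its DR mice with that of DR against AL, so it is not independent of the choice of the family. The adjusted p-values of Tnr, Cspg5 and Hapln4 below are therefore descriptions too, not a fresh test. Tnc was 2.14 times as high on KD as on DR, at a log2 fold change of 1.10 (SE 0.10), and is given as a description because the DR values of Tnc were known. Tnr was higher on KD by 0.32 on the log2 scale (SE 0.05, edgeR adjusted p = 0.00272), or 24.4%. Cspg5 was higher by 0.22 (SE 0.04, edgeR adjusted p = 0.00911), or 16.6%. Hapln4 was higher by 0.18 (SE 0.05, edgeR adjusted p = 0.0407). Hapln4 was at 147.8, 156.5, 150.2 and 167.2 CPM on KD, above 131.7, 139.9, 132.6 and 144.3 CPM on DR, without overlap. Hapln2 differed by -0.20 (SE 0.08) and did not pass, with an edgeR adjusted p of 0.143, and KD and DR mice overlapped.

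In all, 4 of 10 members were called in KD against DR, each higher on KD, where 4.94% of 19087 genes were called, and nothing is read from this count because the DR values of Tnc, 1 of the 4, were known when the family was chosen. The same 4 did not overlap, where 11.8% of genes did not. The median member log2 fold change was 0.08, against -0.0024 for all genes. Each of Tnr and Cspg5 was called with each of the 8 mice left out in turn, whereas Hapln4 kept its call in 1 of these 8 fits, that without DR replicate 4, and its edgeR adjusted p ranged from 0.0364 to 0.136. Of the other members, Vcan differed by 0.09, Bcan by 0.07, Ncan by 0.0021, Hapln1 by 0.03 and Acan by -0.16 on the log2 scale, and none passed.

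**Figure D3:**
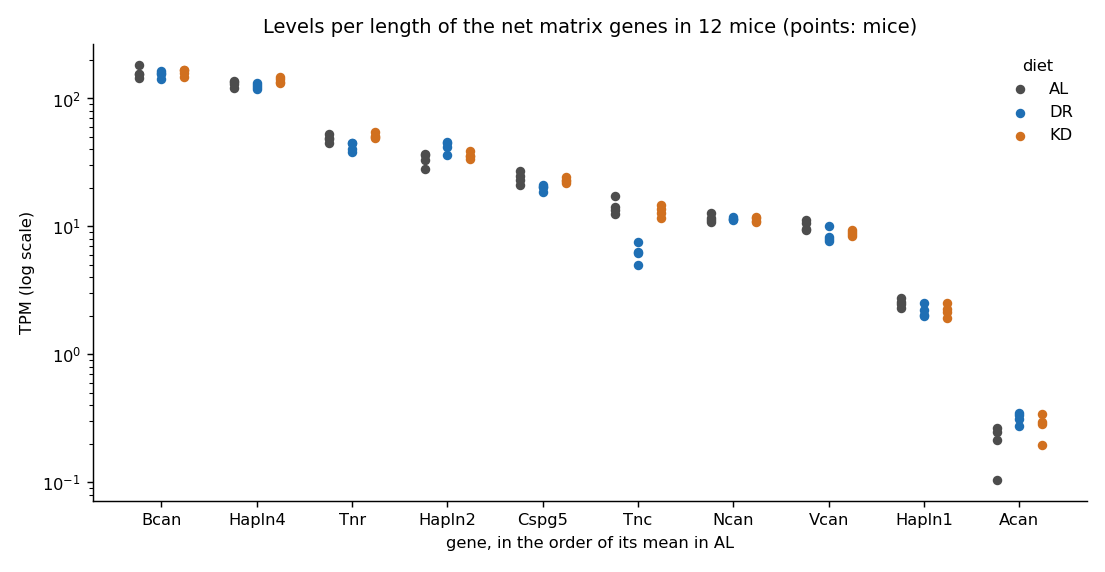
TPM (log axis) of each member in 12 mice, with 1 point per mouse coloured by diet and genes ordered by the AL mean. Bcan and Hapln4 are highest in each diet, and Tnc falls from above Ncan and Vcan in mean level on AL and KD to below both on DR.

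Compared per length, the order of levels was steep. On AL, Bcan was at 159.9 ± 16.6 TPM and Hapln4 at 130.7 ± 7.30 TPM, followed by Tnr at 48.9 ± 3.12 TPM, Hapln2 at 33.5 ± 4.08 TPM and Cspg5 at 23.9 ± 2.51 TPM (SD, n = 4 each). Tnc at 14.3 ± 2.03 TPM and Ncan at 11.6 ± 0.776 TPM overlapped, as did Ncan and Vcan at 10.2 ± 0.834 TPM (SD, n = 4 each). Hapln1 at 2.52 ± 0.196 TPM and Acan at 0.207 ± 0.0726 TPM (SD, n = 4 each) closed the order, and all other neighbours in it differed without overlap between mice.

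On DR the order changed in places. Tnc was at 6.28 ± 1.05 TPM, below Vcan at 8.48 ± 1.05 TPM and Ncan at 11.5 ± 0.295 TPM (SD, n = 4 each), without overlap. Hapln2 at 42.1 ± 4.35 TPM and Tnr at 41.9 ± 3.44 TPM (SD, n = 4 each) overlapped on DR, whereas Tnr lay above Hapln2 without overlap on AL and KD. On KD, Bcan and Hapln4 overlapped, at 159.5 ± 9.89 and 139.4 ± 6.52 TPM (SD, n = 4 each). Together Bcan and Hapln4 made 66.7% of the summed TPM of the family on AL, 67.8% on DR and 67.2% on KD, and Bcan alone made between 87.3% and 89.5% of the lectican TPM in every mouse. Tnc made 3.28% of the family on AL, 1.52% on DR and 2.96% on KD.

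Link protein genes lie beside lectican genes in the mouse genome. Bcan and Hapln2 are 21.5 kb apart on chromosome 3, Vcan and Hapln1 43.7 kb on chromosome 13 and Ncan and Hapln4 2.22 kb on chromosome 8, with no annotated gene between them. The neighbours Bcan and Hapln2 had log2 fold changes of -0.06 and 0.32 on DR against AL, Vcan and Hapln1 -0.27 and -0.21, and Ncan and Hapln4 -0.02 and -0.07. The 95% intervals of Bcan, Hapln1, Ncan and Hapln4 included 0, as did that of Acan. Acan and Hapln3, a link protein gene outside the family, end 2 bases apart on chromosome 7, with log2 fold changes of 0.58 and 0.0061 at mean levels under 1 CPM. None of the members in these pairs shared exon bases with another gene.

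**Figure D4:**
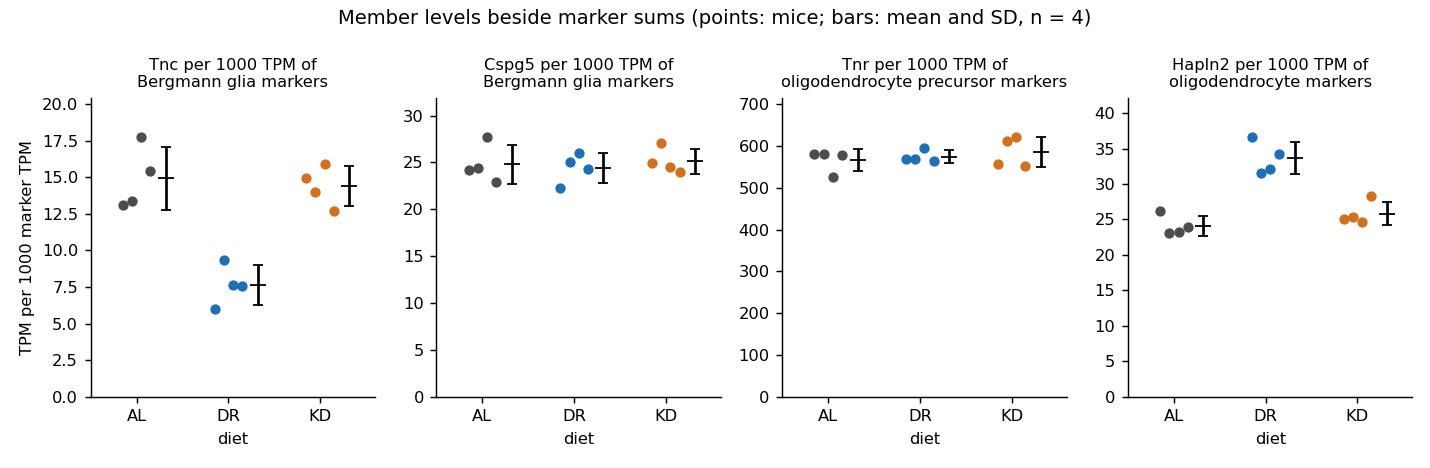
TPM of 4 members per 1000 TPM of the summed markers of a glial type, with 1 point per mouse and the mean ± SD (n = 4) beside each diet. For Tnc the DR mice lie between 5.99 and 9.36, below all others, and for Hapln2 between 31.6 and 36.6, above all others, while the diets overlap for Cspg5 and Tnr.

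Some glial and Purkinje cell markers were lower on DR, as were some of these members. Of 6 astrocyte markers, 1 (Aqp4) was called lower and 1 (Agt) higher on DR than on AL by edgeR's adjusted p. The astrocyte sum overlapped between diets, from 494.2 to 538.0 TPM on AL and 491.1 to 507.6 TPM on DR. None of 6 microglia markers was called in that comparison. Of 5 Bergmann glia markers, 3 (Hopx, Fabp7 and Gja1) were lower on DR than on AL by edgeR's adjusted p, and Gdf10 and Slc1a3 did not pass. None of the 5 was at 0 in any library. Their summed level was between 915.5 and 1006 TPM on AL, 812 and 838.4 TPM on DR and 902.3 and 931.1 TPM on KD. None of 7 Purkinje cell markers was at 0, and 1 (Car8) was called lower on DR than on AL. Their sum was between 3883 and 4057 TPM on AL, 3341 and 3762 TPM on DR and 3804 and 3994 TPM on KD, so DR mice lay below all others, and the part of these neuronal markers in the member differences was not tested. Slc1a3 made the largest part of the Bergmann glia sum, at a mean of 552.2 TPM on AL and 497.2 TPM on DR. Per 1000 TPM of the Bergmann glia markers, Tnc was between 13.1 and 17.7 TPM on AL, 5.99 and 9.36 TPM on DR and 12.7 and 15.9 TPM on KD. The DR mice lay below all others in this ratio. Cspg5 per 1000 TPM of the same markers was between 22.9 and 27.7 TPM on AL, 22.3 and 26.0 TPM on DR and 23.9 and 27.0 TPM on KD, which overlapped. The part of these markers in the Tnc and Cspg5 differences was not tested.

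Of 7 markers of oligodendrocyte precursors and the wider oligodendrocyte lineage, 1 (Gpr17) was called lower on DR than on AL. Mean levels on AL were 26.6 TPM for Olig1, 18.9 TPM for Sox10 and 6.12 TPM for Pdgfra, so their sum is not a measure of precursors alone. Pdgfra, Olig1 and Olig2 had log2 fold changes of only -0.04, -0.04 and -0.06. Those of Sox10, C1ql1 and Matn4 were -0.44, -0.70 and -0.58, and none of these passed either. The sum of the 7 markers was between 77.5 and 92.0 TPM on AL, 66.5 and 79.6 TPM on DR and 80.3 and 91.5 TPM on KD. Tnr per 1000 TPM of these markers was between 525.6 and 580.5 TPM on AL, 564.0 and 596.2 TPM on DR and 552.5 and 621.8 TPM on KD, which overlapped. Vcan per 1000 TPM of these markers overlapped as well, with means of 118.3 on AL, 116.9 on DR and 101.3 on KD. The part of these markers in the Tnr and Vcan differences was not tested. The summed level of 8 oligodendrocyte markers overlapped between diets, from 1208 to 1591 TPM on AL, 1135 to 1416 TPM on DR and 1327 to 1442 TPM on KD. Hapln2 per 1000 TPM of oligodendrocyte markers was between 23.1 and 26.1 TPM on AL, 31.6 and 36.6 TPM on DR and 24.7 and 28.2 TPM on KD, without overlap of DR with either other diet. The part of the oligodendrocyte markers in the Hapln2 difference was not tested. No marker of either list was at 0 in any library.

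The wider pathway was read from 84 genes in 6 lists (hyaluronan synthesis and turnover, chondroitin sulfate chain synthesis, sulfation, matrix proteases, receptors and surface partners, and relatives of the members), of which 78 were tested in DR against AL. On DR, 4 were lower and 1 higher, a called share of 5 in 78 where 3.06% of all genes tested were called. The lists were chosen with earlier results of these data known. Nothing is therefore read from this share, and the values below are a description. Ptprz1, a receptor phosphatase that is itself a chondroitin sulfate proteoglycan and binds tenascins, fell by 0.24 on the log2 scale (SE 0.04, edgeR adjusted p = 0.0113). It was between 389.4 and 400.6 CPM on AL and between 316.9 and 350.9 CPM on DR, without overlap. Itgb3, an integrin subunit of receptors that bind tenascin-C, fell by 0.90 (SE 0.16, edgeR adjusted p = 0.00942), at a low mean level of 1.83 CPM. Itgb8, another integrin subunit, fell by 0.22 (SE 0.05, edgeR adjusted p = 0.0453).

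Among the proteases, Adamts1, a secreted enzyme that cleaves lecticans, was at 22.6, 19.9, 19.4 and 25.6 CPM on AL and at 13.7, 18.7, 15.1 and 15.7 CPM on DR. It fell by 0.47 on the log2 scale (SE 0.10, edgeR adjusted p = 0.0224), without overlap. Cemip, which takes part in the breakdown of hyaluronan, was higher on DR by 0.34 (SE 0.07, edgeR adjusted p = 0.0211). No gene of the lists for chain synthesis, sulfation or relatives of the members passed, and the median log2 fold change of the 78 genes was -0.05. Only Ptprz1 and Itgb3 were called with each of the 8 mice left out in turn.

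Of 77 pathway genes tested in KD against DR, 5 were higher on KD and 1 lower, where 4.94% of all genes tested were called. Nothing is read from this count either, since the comparison shares its DR mice with DR against AL. Adamts1 rose by 0.58 on the log2 scale (SE 0.08, edgeR adjusted p = 0.000738) to 23.6, 22.8, 22.7 and 25.5 CPM in the KD mice, all above the DR mice. Itgb3 rose by 0.69 (SE 0.19, edgeR adjusted p = 0.0433). Adamts4, another protease of lecticans, rose by 0.28 (adjusted p = 0.0209), and Chst15, which adds a sulfate to chondroitin chains, by 0.24 (adjusted p = 0.0291), both in edgeR's test. Adamts15, a related protease, fell by 0.27 (SE 0.07, edgeR adjusted p = 0.0351), from between 31.4 and 38.5 CPM on DR to between 25.7 and 29.7 CPM on KD. Chst11, a chondroitin sulfotransferase, was the remaining gene called. Adamts1 was the only 1 of the 6 called without each mouse in turn, and without KD replicate 3 it was the only pathway gene called.

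The genes whose pattern was most like that of Tnc were sought by the root mean square distance between log2 CPM centred over the 12 libraries, among the 15476 genes whose mean reached 1 CPM. The 5 nearest were Egr4, Alpk2, Gm10591, E2f1 and Ccl21b, at distances of 0.194, 0.209, 0.250, 0.259 and 0.260, where the median gene was at 0.578. Alpk2 was at 8.19 ± 0.926 CPM on AL, 4.17 ± 0.704 CPM on DR and 8.02 ± 1.19 CPM on KD (SD, n = 4 each). Egr4, an activity-induced transcription factor, was at 2.75 ± 0.286, 1.22 ± 0.181 and 2.63 ± 0.383 CPM (SD, n = 4 each) in the same order. Gm10591 and Ccl21b have near-identical copies in the genome, so their reads may be divided among copies and their levels are uncertain. Among the members, Tnr ranked 405, Cspg5 449 and Vcan 628 of these genes, and Hapln2 ranked 14399.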

How the data were processed

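Per the labels and the methods of the study, paired-end poly(A) libraries (TruSeq v2, which does not keep strand) were trimmed with Trimmomatic 0.39, aligned with STAR 2.7.0f to GRCm38.p6 and counted with featureCounts of Subread 1.6.4, and the submitters' notes also name edgeR 3.32.1. The strand setting of the counting is not given in the sources used here. The authors deposited raw read counts for 54752 genes, without normalization, and all 12 libraries were used. Groups came from the labelled treatment. Replicate numbers follow the order of the records and pair no mice. P-values set the difference between diets against the spread between mice on the same diet. The labels name no separate cages or litters, so an effect of these cannot be told apart from one of diet.

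From the counts, genes were kept with filterByExpr (minimum count 10, minimum total 15) and scaled by TMM, and the 8 libraries of each comparison were fitted in edgeR 4.0.16 (R 4.3.3) by glmQLFit and glmQLFTest, a quasi-likelihood F-test. P-values were adjusted by Benjamini-Hochberg over all genes tested, at a threshold of 0.05. CPM used TMM-scaled library sizes and log2 CPM a prior count of 2. TPM were computed from the counts and the summed exon length of each gene. The fits were tested on simulated data, with changes larger than those of any member except Tnc and in genes with more reads than Acan. Smaller changes were not simulated. The alternatives were other scalings, filters, DESeq2 1.42.0, a joint fit of 12 libraries and leaving out each mouse. Promoter sequences came from RefSeq.

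Members and lists were chosen with earlier results of these data known. All 10 members were named, together with up to 5 called pathway genes per comparison that reached a mean of 1 CPM and changed most, and the 5 genes nearest to Tnc. Chst11, Hopx, Fabp7, Gja1, Gdf10, Slc1a3, Gpr17, Car8, Hapln3 and Sostdc1 were picked out once their values had been seen. The same holds for Ttr, Clic6, Kl, Folr1, Pdgfra, Olig1, Olig2, Sox10, C1ql1, Matn4, Aqp4, Agt, Spp1, Slc17a6 and Lhx9. Test results of single oligodendrocyte markers are not reported here.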

Additional observations from a re-analysis of the deposited data

Results flagged for a closer look

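Each of the 10 members was examined in each diet for a mouse far from the other 3, by Dixon's test, which gives 30 groups of 4 mice. Vcan in the DR mice was the only such group. DR replicate 2 was at 40.2 CPM, while the other 3 DR mice lay between 31.6 and 32.7 CPM, so that its gap to the nearest mouse was 0.873 of the whole range. Chance alone marks about 1 in 20 groups. Without DR replicate 2, Vcan differed by -0.36 on the log2 scale between DR and AL.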

How the results depend on the processing

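Of 414 member values under the alternatives, 365 kept their direction and their side of the threshold, 18 newly passed, 14 no longer passed and 17 changed sign. Tnr and Cspg5 were past the threshold in KD against DR under all 14 alternatives. That comparison shares its DR mice with the one that chose the family. Members called in DR against AL, from which nothing is read, were 5 without the low-count filter, with DESeq2 and in the joint fit (Tnc, Tnr, Cspg5, Vcan and Hapln2), and between 1 and 4 with a mouse left out, with 1 without AL replicate 1 or 2 or DR replicate 1 or 3. Pathway genes called in DR against AL were 12 without the low-count filter, 8 with DESeq2 and between 2 and 5 with a mouse left out, the lowest without DR replicate 3. In KD against AL they were 2 without the low-count filter, and in KD against DR 10 with DESeq2 and between 1 and 7 with a mouse left out, the lowest without KD replicate 3. The cause of these shifts was not tested. All sign changes were in log2 fold changes near 0. Ncan in DR against AL was 0.0014 with library sizes alone and from -0.044 to 0.0068 with a mouse left out. In KD against AL, leaving out a mouse gave -0.019 to 0.071 for Bcan, -0.045 to 0.012 for Ncan and -0.086 to 0.0075 for Cspg5. In KD against DR, Ncan was -0.018 with library sizes alone, -0.0045 with genes above 10 CPM and from -0.021 to 0.026 with a mouse left out, and Hapln1 from -0.029 to 0.12. Depth limits Acan, with at most 26 reads per library, and without AL replicate 4 it was 0.38 in DR against AL and 0.22 in KD against AL. No paired analysis was possible because the labels give no replicate numbers shared by the diets.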
